A study of Mus musculus with 6 samples.

Results

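The genes described are 10 members of the transforming growth factor beta (TGF-beta) pathway, chosen by name: the ligand genes Tgfb1, Tgfb2 and Tgfb3, the activin subunit gene Inhba, the receptor gene Tgfbr2, the signal transducer genes Smad2, Smad3, Smad4 and Smad7, and Tgfbi, a gene known for its induction by TGF-beta. They make up 10 of the 18193 genes measured, and 26 of the 45037 probe sets that are not controls carry their symbols. A probe set is a group of short probes on the array that together report 1 transcript, and the brightest probe set of a gene, by its mean over all arrays, stands for that gene. Mouse bone marrow (BM) cells of the strain C57BL/6, from healthy animals, were transfected with a miR-142-3p mimic or with a CTRL oligo with the reagent GeneSilencer, both at 100 nM. GM-CSF and IL-6 were added to both groups after 5 h and left for 4 days, a culture that yields myeloid-derived suppressor cells (MDSCs). RNA was measured on 3 Affymetrix arrays of mimic-transfected cells and 3 of control cells. Nothing in the labels tells whether the 3 arrays of a group are separate cultures or animals. P-values therefore measure the spread between these arrays, which may be technical, and the number of arrays limits the precision.

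TGF-beta ligands are secreted in a latent form, and once released they bind the receptor encoded by Tgfbr2, which recruits and activates the receptor encoded by Tgfbr1. The activated pair phosphorylates the proteins of Smad2 and Smad3, which join that of Smad4 and enter the nucleus to regulate genes, while the Smad7 protein blocks the receptor. Myeloid cells both make and answer TGF-beta, and MDSCs are known for using it to restrain T cells. The agent that distinguishes the groups is a mimic of the mature microRNA, which is shown here because its seed, bases 2 to 8, is the stretch that pairs with target transcripts. It is given in RefSeq as mmu-miR-142a-3p (GRCm38.p6, chr11:87756903-87756925, plus strand), with the seed in capitals.
mmu-miR-142a-3p: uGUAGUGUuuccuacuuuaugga
A transcript pairs with this seed through the letters ACACUAC. The arrays do not report the level of the mimic itself, and target sites in the transcripts of the 10 genes were not analysed here.

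Of the 10 genes, Tgfbi was the 1 that fell with the mimic, and 0 rose. The other 9 did not pass the test, an adjusted p under 0.05 over all 18193 genes by limma. Over all genes tested 1.59% were lower and 1.17% were higher by the same rule. Quantile normalisation of the deposited values moved the counts over all genes to 322 higher and 290 lower, against 213 higher and 290 lower as reported. A spike-in covariate moved them to 1123 higher and 879 lower. The median log2 fold change of the 10 genes was -0.14, against 0.01 over all genes. In 3 of the 10, Tgfbi, Tgfb1 and Tgfbr2, all mimic arrays lay below all control arrays, a separation found in 11.1% of all genes. With all arrays, 2 of the 10 had an unadjusted p under 0.05, Tgfbi and Tgfb1, both lower, against 9.06% of all genes lower and 7.99% higher by that rule. Without mimic array 1, mimic array 3 or control array 2, 0 of the 10 passed by limma, and 0 of all 18193 genes passed in either direction. Without mimic array 2, 0 of the 10 passed, with 47 genes lower and 18 higher over all genes.

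Across the whole series, correlations between arrays ran from 0.982 to 0.996 and column medians from 0.84 to 0.92 on the log2 scale. The mean of the spike-in probe sets was less even. It was 8.17, 8.06 and 8.92 on mimic arrays 1, 2 and 3, against 8.57, 7.58 and 7.53 on control arrays 1, 2 and 3. Values are on the deposited log2 scale, where 52.6% of all values lie under 1, and changes of dim genes may be understated there. Itgam, S100a8 and S100a9, markers of MDSCs, were all measured, S100a8 and S100a9 at 11.82 or above on every array. Itgam was lower with the mimic, at 5.32, 5.33 and 5.58 on the mimic arrays against 6.22, 6.84 and 6.74 on the control arrays. Its log2 fold change was -1.19 ± 0.17 (limma adjusted p = 0.017). Ly6g was looked for but was not among the genes measured. Control array 1 lay apart from the other controls in several of the 10 genes.

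**Figure D1:**
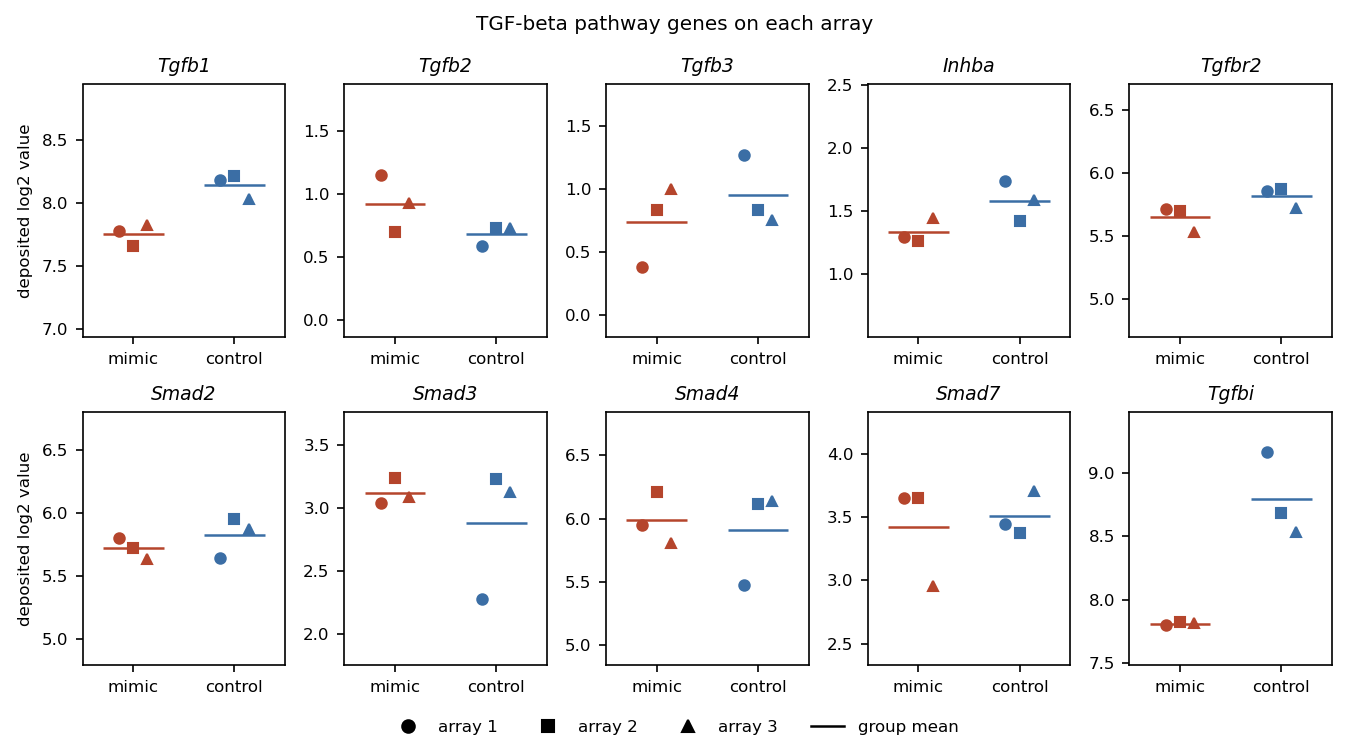
Deposited log2 value (y axis) of each of the 10 genes on the 3 mimic arrays (left) and the 3 control arrays (right). Symbols are arrays, lines are group means, and every panel spans 2 log2 units. The mimic arrays of Tgfbi sit between 7.80 and 7.82, all below the control arrays, and most other panels overlap.

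Tgfbi encodes a secreted matrix protein that binds collagens and integrins. Its log2 values were 7.80, 7.82 and 7.81 on mimic arrays 1, 2 and 3, against 9.17, 8.69 and 8.54 on control arrays 1, 2 and 3. The mimic arrays were nearly equal and the controls were spread, with array 1 the highest, and the groups did not overlap. The group levels were 7.81 ± 0.01 with the mimic and 8.80 ± 0.33 in control (SD, n = 3 each), and the log2 fold change was -0.99 ± 0.16 (SE), a 1.98-fold fall (limma adjusted p = 0.023). Its 95% interval ran from -1.36 to -0.62. In the 4 fits with 1 array left out in which it did not pass, its adjusted p by limma was 0.0961 to 0.134. Without control array 1 the log2 fold change was -0.80 (limma adjusted p = 0.0176).

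Tgfbi is carried by 4 probe sets, and in a fit of all 45037 probe sets each was lower on every mimic array than on any control array, a separation found in 8.90% of all probe sets (8.62% were separated upward). Probe set 1415871_at stood at 6.04, 6.08 and 6.16 on the mimic arrays, against 7.41, 7.48 and 7.02 on the control arrays, a 2.32-fold fall (log2 fold change -1.21 ± 0.13, limma adjusted p = 0.0194). The probe set that represents the gene, 1448123_s_at, also passed in that fit (adjusted p = 0.0476 by limma). The ending s_at of 1448123_s_at is the maker's mark for probes shared by several transcripts, so that probe set may not be specific to Tgfbi. The remaining probe sets end in x_at, the maker's mark for probes that may also bind other transcripts. Of these, 1437463_x_at had a log2 fold change of -0.53 ± 0.12 and 1456250_x_at one of -0.64 ± 0.15, and neither passed (adjusted p = 0.111 and 0.119 by limma). The direction was therefore the same in all 4 probe sets, and the size ranged from -0.53 to -1.21. Over all probe sets 0.568% were lower by this rule and 0.329% higher, and Tgfbi held the 2 of the 26 that passed.

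**Figure D2:**
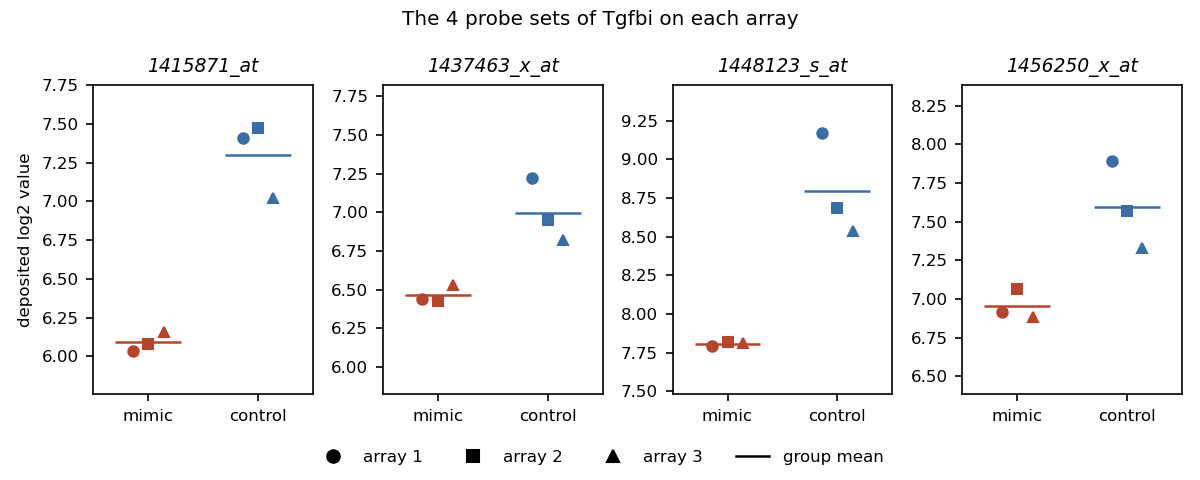
Deposited log2 value (y axis) of the 4 probe sets of Tgfbi on the 3 mimic arrays (left of each panel) and the 3 control arrays (right). Symbols are arrays, lines are group means, and each panel spans 2 log2 units. In each panel the mimic arrays lie below the control arrays, with the widest gap in 1415871_at.

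In a mixed culture, fewer cells of a type and less RNA per cell cannot be told apart, and markers of other cells moved in the same arrays. Tgfbi is abundant in monocytes and macrophages. Of 7 measured monocyte and macrophage markers 3 fell, namely Itgam, Csf1r and Ccr2, and 1 rose, Fcgr1, with a summed level (values taken off the log2 scale and added) of 1204 to 1268 on the mimic arrays and 1385 to 1456 on the control arrays. Of 8 dendritic cell markers 4 fell, Ccl17, Ccl22, Ccr7 and Itgax, with a summed level of 59.2 to 64.6 with the mimic and 271 to 811 in control. The other 4, Cd209a, Dpp4, Flt3 and Zbtb46, were dimmer in control and did not pass, and such a sum mostly reflects the brightest markers. In 7 of the 8 every mimic array lay below every control array, a separation found in 11.1% of all genes. The median log2 fold change of these 8 markers was -1.17. Of 8 fibroblast and stromal markers, 2 fell, Dcn and Col1a2, with a summed level of 35.2 to 42.5 with the mimic and 54.6 to 69.8 in control. Lum and Pdgfra were under 1 on every array. Of 7 mast cell and basophil markers 2 rose, Fcer1a and Cpa3. In all 7 every mimic array lay above every control array, a separation found in 11.0% of all genes. The median log2 fold change of these 7 markers was 0.66. Their summed level was 782 to 860 with the mimic and 347 to 618 in control. Fcer1a encodes a chain of the IgE receptor and Cpa3 a mast cell protease. Of 7 measured neutrophil markers, without Ly6g, 0 passed, with a summed level of 15018 to 15299 with the mimic and 12035 to 14391 in control. Of 6 T cell markers 0 passed, with a summed level of 15.1 to 15.7 with the mimic and 14.7 to 16.4 in control. By the rule used for these markers, 1.59% of all genes fell and 1.17% rose. None of these lists was tested for its part in the fall of Tgfbi.

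Among 2503 other genes whose mean log2 reached 6 in either group, the 3 most like Tgfbi over the 6 arrays were H2-Aa, S100a4 and Slc35c1, with Pearson correlations of 0.9987, 0.9981 and 0.9979. These correlations are a description only, since the 6 points fall into the groups compared, and 194 genes had one over 0.95. H2-Aa encodes a chain of MHC class II and S100a4 a calcium-binding protein of motile cells. H2-Aa was at 7.74, 7.73 and 7.80 on the mimic arrays, against 9.49, 8.95 and 8.72 on the control arrays. As in Tgfbi, the mimic arrays were close together and control array 1 was the highest, a likeness that follows from how H2-Aa was picked.

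The promoter of Tgfbi is shown because it belongs to the gene that fell, and that of Tgfb1 beside it as the promoter of the pathway's main ligand gene in blood cells. Each is the 250 bases before the start of the gene in RefSeq (GRCm38.p6), Tgfbi at chr13:56609336-56609585 and Tgfb1 at chr7:25686752-25687001, both on the plus strand, with matches to the motifs searched in capitals.
Tgfbi: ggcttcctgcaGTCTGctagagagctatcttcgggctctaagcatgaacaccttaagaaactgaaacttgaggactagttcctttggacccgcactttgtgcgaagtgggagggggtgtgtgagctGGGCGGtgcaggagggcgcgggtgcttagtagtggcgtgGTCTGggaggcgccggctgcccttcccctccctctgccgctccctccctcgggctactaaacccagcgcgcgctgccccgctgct
Tgfb1: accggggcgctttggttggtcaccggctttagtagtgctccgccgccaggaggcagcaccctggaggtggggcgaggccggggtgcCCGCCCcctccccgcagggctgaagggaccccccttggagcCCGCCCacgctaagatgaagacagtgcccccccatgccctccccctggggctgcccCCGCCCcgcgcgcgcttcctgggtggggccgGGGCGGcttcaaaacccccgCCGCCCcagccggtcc
Both strands were searched for 4 motifs, and no matches overlapped in these windows. The Smad element CAGAC, the letters that Smad proteins are known to bind, occurred 2 times in the Tgfbi window, on the minus strand, and 0 times in that of Tgfb1, and 42.2% of 32851 promoters of this length hold it. The GC box GGGCGG occurred 1 time in Tgfbi and 5 times in Tgfb1, and 32.7% of promoters hold it. The AP-1 site TGANTCA and the TATA box TATAAA had 0 matches in both windows and occur in 6.75% and 12.4% of promoters. The table held promoters of 6 of the 10 genes, of which 3 had the Smad element (Tgfbi, Tgfb2 and Tgfbr2) and 3 the GC box (Tgfbi, Tgfb1 and Smad3). A match describes these letters and does not show that a factor binds there.

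Among the ligand genes, Tgfb1 encodes the TGF-beta made by most blood cells. Its log2 values were 7.77, 7.66 and 7.82 on mimic arrays 1, 2 and 3, against 8.18, 8.21 and 8.03 on control arrays 1, 2 and 3. The groups did not overlap, and the arrays of each group lay close together. The levels were 7.75 ± 0.08 with the mimic and 8.14 ± 0.10 in control (SD, n = 3 each), a log2 fold change of -0.39 ± 0.10 with a 95% interval from -0.61 to -0.16, which did not pass (limma adjusted p = 0.09, unadjusted p = 0.00429). It passed downward in 5 of 17 alternatives, among them the fits that left out genes of a mean log2 below 3 or below 5 (adjusted p = 0.0461 and 0.0259 by limma). Its second probe set, 1445360_at, was dim, at 0.81 to 0.98 with the mimic and 0.81 to 1.08 in control, and with the probe sets of the gene averaged the log2 fold change was -0.20. Megakaryocytes and platelets are rich in Tgfb1. Of 7 measured markers of theirs 0 passed, and all 7 had a higher mean with the mimic, as did 9459 of all 18193 genes. In 3 of the 7 every mimic array lay above every control array, a separation found in 11.0% of all genes. The summed level of the 7 was 1100 to 1290 with the mimic and 899 to 996 in control. The part of these cells in the level of Tgfb1 was not tested.

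Tgfb2 and Tgfb3 encode the other TGF-beta ligands, and Inhba encodes the subunit of activin A, a related ligand that signals through the same Smads. All 3 genes were near the bottom of the scale, under 2 on every array and in every probe set. Tgfb2 stood at 1.15, 0.70 and 0.92 on the mimic arrays, against 0.59, 0.73 and 0.73 on the control arrays. Its log2 fold change was 0.24 ± 0.13 (limma adjusted p = 0.399), and its other 3 probe sets lay under 1 on every array. Tgfb3 stood at 0.38, 0.83 and 0.99 on the mimic arrays, against 1.27, 0.83 and 0.76 on the control arrays (log2 fold change -0.22 ± 0.19, limma adjusted p = 0.64). Without control array 1, its highest array, the log2 fold change of Tgfb3 was -0.06, and without mimic array 1, its lowest, it was -0.04. The groups overlapped in both genes. Inhba stood at 1.30, 1.27 and 1.44 on the mimic arrays, against 1.74, 1.42 and 1.59 on the control arrays, where mimic array 3 overlapped control array 2. Its log2 fold change was -0.25 ± 0.11 (limma adjusted p = 0.32).

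The receptor gene Tgfbr2 stood at 5.72, 5.70 and 5.53 on mimic arrays 1, 2 and 3, against 5.85, 5.87 and 5.72 on control arrays 1, 2 and 3. The groups were separated by less than the spread within each of them. The log2 fold change was -0.17 ± 0.10, with a 95% interval from -0.40 to 0.06 (limma adjusted p = 0.449). A dimmer probe set, 1425444_a_at, had a log2 fold change of -0.24 ± 0.12, and 1422019_at lay under 1 on every array. Tgfbr1, which encodes the partner receptor, was lower on every mimic array, though narrowly, at 5.28, 5.62 and 5.35 against 5.66, 5.74 and 5.62 on the control arrays (log2 fold change -0.26 ± 0.11, adjusted p = 0.292 by limma).

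**Figure D3:**
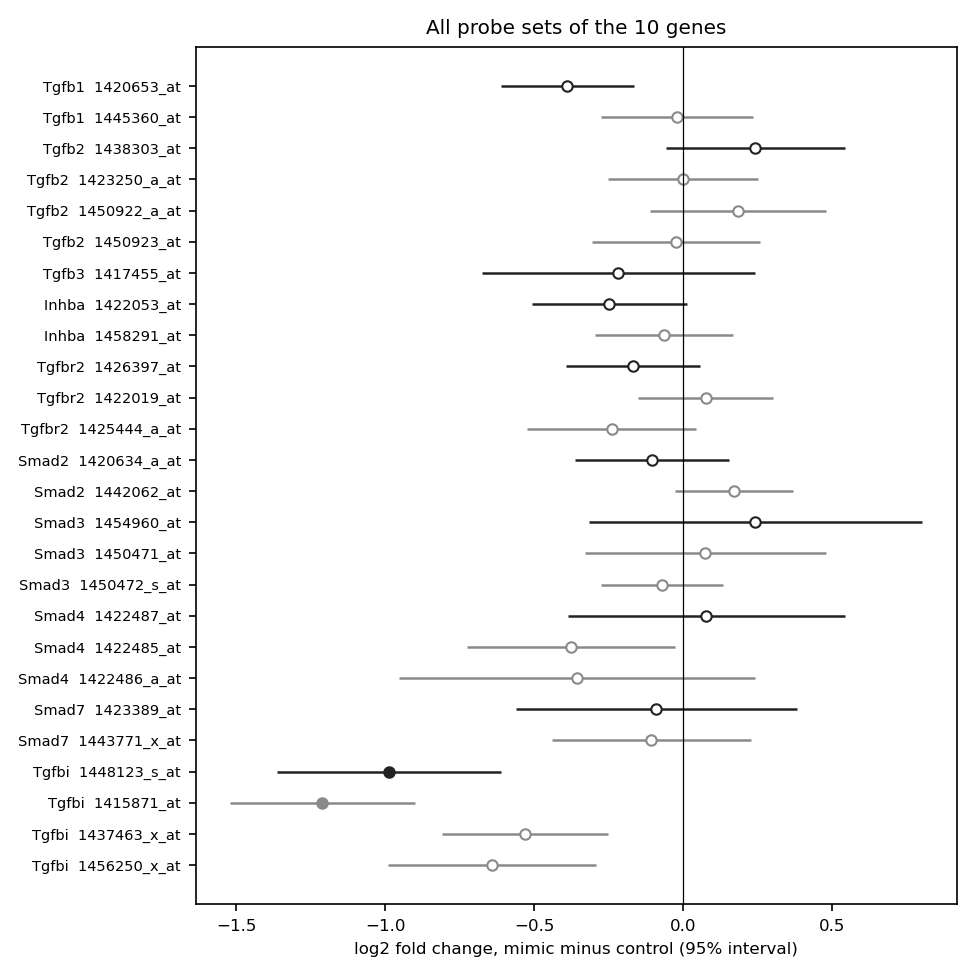
Log2 fold change, mimic minus control (x axis), with its 95% interval for all 26 probe sets of the 10 genes, from the fit of all probe sets. Black marks the probe set that represents its gene, grey the others, and filled points passed an adjusted p of 0.05. The 2 filled points belong to Tgfbi, and the largest upward value is 0.24.

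None of the 4 Smad genes passed. Smad2 and Smad3 encode the transducers that the receptors activate. Smad2 stood at 5.80, 5.72 and 5.64 on the mimic arrays, against 5.64, 5.96 and 5.88 on the control arrays, with a log2 fold change of -0.10 ± 0.11 (limma adjusted p = 0.708). Smad3 stood at 3.04, 3.24 and 3.09 on the mimic arrays, against 2.28, 3.23 and 3.13 on the control arrays. Control array 1 was the lowest control in both genes, and the groups overlapped. The log2 fold change of Smad3 was 0.24 ± 0.24 (adjusted p = 0.673 by limma), and without control array 1 it was -0.06. Without that array the log2 fold change of Smad2 was -0.20. The second probe set of Smad2, 1442062_at, was dim and higher on every mimic array (1.67, 1.76 and 1.71 against 1.47, 1.58 and 1.57 on the control arrays), opposite in sign to the first, and did not pass (limma adjusted p = 0.455).

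Smad4 encodes the partner shared by the TGF-beta and BMP branches. Its representing probe set stood at 5.95, 6.21 and 5.80 on the mimic arrays, against 5.47, 6.12 and 6.14 on the control arrays, again with control array 1 the lowest. The log2 fold change was 0.08 ± 0.20 (limma adjusted p = 0.89), and the groups overlapped. Its sign turned without control array 1 (-0.14), without mimic array 2 (-0.03) and with array weights (-0.07). It also turned with the probe sets of the gene averaged (-0.22) or with the probe set of the largest SD in place of the brightest (-0.36). Its probe sets disagreed in sign, with log2 fold changes of -0.38 ± 0.15 for 1422485_at and -0.36 ± 0.26 for 1422486_a_at, neither of which passed (adjusted p = 0.333 and 0.63 by limma). Smad7, which encodes the inhibitory Smad, stood at 3.65, 3.65 and 2.96 on the mimic arrays, against 3.45, 3.38 and 3.71 on the control arrays. Mimic array 3 was the low one, and the groups overlapped. Its log2 fold change was -0.09 ± 0.20 (limma adjusted p = 0.874), and without mimic array 3 it was 0.14.

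For all 9 genes that did not pass, the 95% interval excluded a log2 change of 1 in either direction. The bounds ran from -0.66 to 0.79, the last for Smad3. For Tgfb2, Tgfb3 and Inhba this holds on the deposited scale only, since they are dim.

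The rest of the pathway was read from 5 lists with 66 genes, of which 63 were measured. Of these 4 fell and 0 rose, against 1.59% lower and 1.17% higher over all genes, and the median log2 fold change was -0.05, against 0.01 over all genes. All mimic arrays lay below all control arrays in 13 of the 63, and above them in 2, against 11.1% and 11.0% of all genes. Unadjusted p-values under 0.05 by limma were found for 15 lower and 2 higher genes, against 9.06% and 7.99% of all genes. These shares are a description only, since the lists were chosen with earlier results of these data known. By limma 0 of the 63 fell when mimic array 1, mimic array 3 or control array 2 was left out, the fits in which 0 of all genes passed, and 2 fell without mimic array 2, where 47 of all genes fell.

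Of 11 genes for the binding and activation of latent TGF-beta, 1 fell. This was Mmp14, which encodes a membrane protease able to release TGF-beta. It stood at 1.27, 1.36 and 1.38 on mimic arrays 1, 2 and 3, against 3.78, 3.60 and 3.11 on control arrays 1, 2 and 3. It was near the bottom of the scale with the mimic, and its log2 fold change on the deposited scale was -2.16 ± 0.17 (limma adjusted p = 0.00673). With its probe sets averaged the log2 fold change of Mmp14 was -1.18 (adjusted p = 0.00627 by limma). Of 13 genes known as TGF-beta targets 2 fell, those of fibronectin, Fn1, and of the protease inhibitor Timp1. Fn1 stood at 2.73, 3.64 and 3.23 on the mimic arrays, against 5.99, 5.46 and 4.95 on the control arrays (log2 fold change -2.27 ± 0.30, limma adjusted p = 0.0136). With its probe sets averaged the log2 fold change of Fn1 was -1.10 (adjusted p = 0.00908 by limma). Timp1 stood at 4.16, 4.73 and 4.41 on the mimic arrays, against 6.41, 6.09 and 5.46 on the control arrays (log2 fold change -1.55 ± 0.25, adjusted p = 0.0218 by limma). In both genes the groups did not overlap and control array 1 was the highest, and without that array Timp1 did not pass (-1.34 on the log2 scale, limma adjusted p = 0.0612). The other 11 targets did not pass, and the median of the list was -0.05.

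Of 16 other Smads and Smad regulators 1 fell, Ski, whose product represses Smad-driven transcription. Ski stood at 4.97, 5.00 and 4.90 on the mimic arrays, against 5.67, 5.51 and 5.32 on the control arrays, and the groups did not overlap. Its log2 fold change was -0.55 ± 0.11 (limma adjusted p = 0.0477), and without control array 1 it was -0.46 (adjusted p = 0.0866 by limma). The inhibitory Smad6 was dim, at 0.81, 0.84 and 0.60 on the mimic arrays against 1.39, 0.77 and 0.85 on the control arrays, which overlapped (log2 fold change -0.25 ± 0.17, limma adjusted p = 0.524).

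None of 12 receptor and co-receptor genes passed. The largest change there was in Eng, which encodes the co-receptor endoglin, at 5.42, 5.20 and 5.26 on the mimic arrays against 4.93, 4.77 and 4.82 on the control arrays. All mimic arrays were higher, and the log2 fold change of 0.45 ± 0.10 did not pass (adjusted p = 0.0635 by limma). None of 11 activin and BMP ligands and antagonists passed either. The largest change among them was in Fstl1, which encodes a secreted follistatin-like protein, at 3.11, 3.27 and 3.13 on the mimic arrays against 3.49, 3.78 and 3.79 on the control arrays (log2 fold change -0.52 ± 0.11, limma adjusted p = 0.0631).

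**Figure D4:**
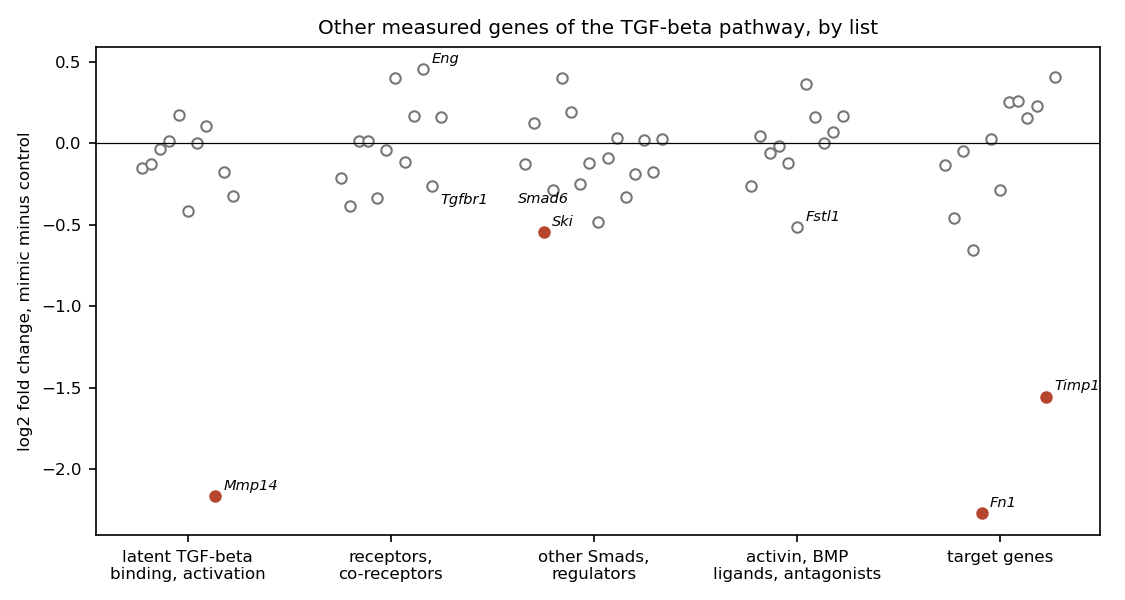
Log2 fold change, mimic minus control (y axis), of the 63 other measured pathway genes, grouped by list along the x axis. Each point is a gene, and filled points passed an adjusted p of 0.05. The 4 filled points, Mmp14, Ski, Fn1 and Timp1, all lie below 0, and the remaining genes lie between -0.65 and 0.45.

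The plot of alternatives sets Tgfbi beside Tgfb1. Tgfbi was lower in all 17 alternatives, with a log2 fold change from -1.21 to -0.80, and passed in 12 of them. Tgfb1 was lower in all 17, from -0.44 to -0.20, and passed in 5. A direction fixed by groups that do not overlap adds no support.

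**Figure D5:**
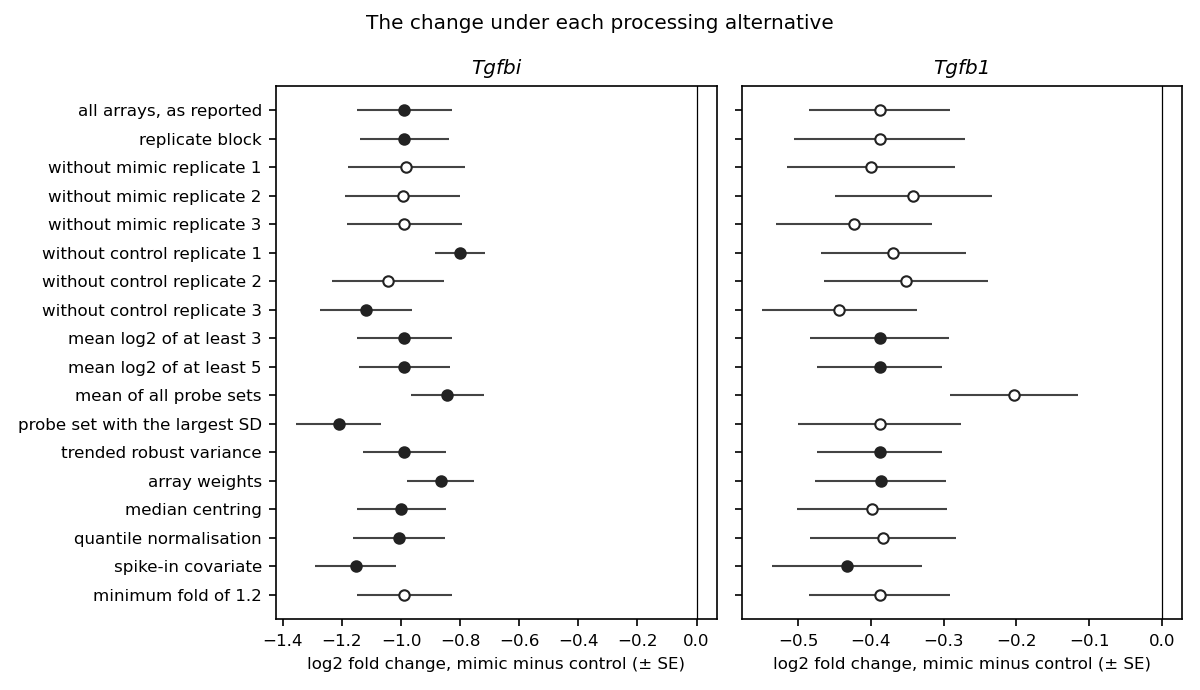
Log2 fold change, mimic minus control (x axis), ± SE for Tgfbi (left) and Tgfb1 (right) under the reported fit and 17 alternatives, listed down the page. Filled points passed an adjusted p of 0.05 by limma. Tgfbi ranges from -1.21 to -0.80 and Tgfb1 from -0.44 to -0.20, on axes of different scale.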

How the data were processed

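The deposited table gives 1 log2 value per probe set and array. The submitters' processing notes list RMA and affy, without versions or roles, and how the values were centred and floored is unstated. The authors' log2 values were used without further normalisation. Of 45101 probe sets, 64 are Affymetrix controls, and the platform annotation pairs 34945 with 1 gene symbol, 932 with several and 9160 with none listed. Symbols were updated through gene identifiers to RefSeq names for 34741 of the 34945. Each of 18193 genes was read from its brightest probe set, by the mean of the 6 arrays.

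Mimic arrays were set against control arrays in limma 3.58.1 (R 4.3.3) by lmFit and then eBayes, as a two-sided test without covariates, with Benjamini-Hochberg adjustment over the 18193 genes, or over 45037 probe sets where probe sets are given. The code was tested on simulated data. All 10 genes are named, with each other pathway gene that passed, the largest change in each list where none passed, and Tgfbr1 and Smad6. The genes and lists were chosen with earlier results of these data known. Alternatives changed the probe set per gene, the filter on dim genes, the variance model, the scaling and the minimum fold (1.2), added the replicate number as a block or a spike-in covariate, or left out 1 array.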

Additional observations from a re-analysis of the deposited data

How the results depend on the processing

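The 9 genes that did not pass stayed so in every alternative run, except Tgfb1, which passed downward with genes of a mean log2 of at least 3 or of at least 5, with a trended robust variance, with array weights and with the spike-in covariate. In those 5 fits Tgfb1 and Tgfbi fell, against Tgfbi alone as reported. With the filters, 408 of 7662 and 350 of 4093 genes were lower. Of all 18193 genes, 429 were lower with the trended robust variance, 591 with array weights and 879 with the spike-in covariate, against 290 as reported. With a minimum fold of 1.2, 0 of the 10 fell, where 70 of all genes did. The log2 fold change of Tgfbi was -0.99 there (adjusted p = 0.096 by limma). With each array left out in turn, 0 to 1 of the 10 fell, against 0 to 248 of all genes. Over the other pathway genes, where 4 fell and 0 rose as reported, leaving out each array gave 0 to 4 lower. Averaging the probe sets of a gene and array weights each gave 7 lower, the spike-in covariate 8 and the minimum fold 2. With averaging, 280 of all genes were lower. Of these genes 1 rose with a mean log2 of at least 3, with the trended robust variance and with the spike-in covariate. Over all genes those fits gave 300, 320 and 1123 higher. With a mean log2 of at least 5 and with array weights 2 rose, where 291 and 456 of all genes did. Of the 26 probe sets of the 10 genes, 2 fell as reported, and leaving out each array gave 0 to 2 lower. The trended robust variance and the spike-in covariate gave 4, a mean log2 of at least 5 gave 5, and the minimum fold 0. The shares over all probe sets in these fits are not given here. The cause of these shifts was not tested. The filters adjust over fewer genes (7662 and 4093) and also change the SE. For Tgfb1 the SE was 0.0975 as reported, and 0.0952 and 0.0862 with the filters at 3 and 5. Same-numbered arrays of the groups deviated together with correlations of -0.10, 0.25 and -0.19, so the numbers were not taken to pair them. With the replicate block 0 of the 26 probe sets passed, Tgfbi passed and Ski did not, and with quantile normalisation Ski did not pass either. Tgfb2, Tgfb3, Inhba and Smad3 lay below both filters and Smad7 below the one at 5, so they had no value there.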
